A study of Mus musculus with 19 samples.

Results

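The comparison covered 10 of the 19 kidney samples in this mouse RNA-seq series: the 5 labelled IRLac and the 5 labelled IR. They were chosen by those labels alone. All animals were male C57BL/6 mice, an inbred laboratory strain, whose age is not given in the sources used here. The IR mice had ischemia-reperfusion, in which blood flow to the kidney is stopped and then restored. The IRLac mice had the same injury after 4 weeks of daily oral gavage with a Lactobacillus strain, and in both groups the kidneys were taken on day 5 after injury. The other gavaged group, IRLacz (n = 4), carries the abbreviation of Lactobacillus casei Zhang, so IRLac was read as the remaining strain, Lactobacillus acidophilus, by elimination. Sham-operated kidneys (sham, n = 5) and IRLacz kidneys were used here for reference levels and in the shared model. No gavage is stated for the IR mice, so the effect of the strain and that of the gavage itself cannot be told apart. The labels do not say that each sample was a separate mouse. The p-values therefore measure spread between samples, which the shared model pools over all 4 groups.

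A kidney whose blood flow is interrupted loses tubule cells, and the debris, free nucleic acid and invading leukocytes can switch on the interferon system. Cells sense nucleic acid through receptors and adaptors, activate interferon regulatory factors and secrete interferons. The interferon receptors then signal through JAK kinases to transcription factors of the STAT and IRF families, which bind interferon-stimulated response elements and raise a broad set of antiviral genes, large GTPases and genes of antigen presentation. The same system makes its own inhibitors. Tubule injury markers, matrix genes and macrophage genes follow the damage and its repair by other routes.

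Levels are given in FPKM, fragments scaled by gene length and by the sample's total. Differences were taken after adding 1 FPKM and going to log2, which shrinks them for low genes. Between 13013 and 13181 entries reached 1 FPKM in the IR samples and between 12900 and 13240 in the IRLac samples. Correlation between samples of a group ran from 0.9816 to 0.9892 in IR and from 0.9658 to 0.9882 in IRLac. A sample of each group stood apart. On the first principal component of all 19 samples, which held 75.5% of the variance and separated sham from injured kidneys, IRLac replicate 3 was at -0.36, while the other IRLac and all IR samples lay between -39 and -20.95 and sham between 64.73 and 70.33. IR replicate 5 was nearest to sham among the IR samples, at -20.95, and had low interferon-stimulated genes, described below. Results that rest on these samples are given with and without them.

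Across 13594 tested entries, 1 was lower in IRLac at a limma adjusted p under 0.05 (0.00736%) and 0 were higher (0%). At an unadjusted p under 0.05 the counts were 481 lower (3.54%) and 305 higher (2.24%). All 5 IRLac samples lay below all 5 IR samples in 40 entries (0.294%) and above them in 36 (0.265%). An exact permutation test of each entry over every split of the samples into 5 and 5 gave 642 entries under 0.05 and 0 after adjustment, with a lowest adjusted p of 0.981. Full separation gives 0.00794, the smallest p of this test and the share of splits that separate an entry so. It was reached by 76 of the 13594 entries, a smaller share than that. Permutation p-values of single genes below are unadjusted, and genes named for a small limma p were picked from these same samples. The median log2 difference over all tested entries was 0.0024. The gene sets below, which overlap in part, are described by how many members lay past the unadjusted threshold, to be read beside 3.54% lower and 2.24% higher. The limma p rests on 1 spread pooled over all 4 groups, sham included, and the permutation p on the 10 compared samples alone. The groups differed in spread: the SD of Irf7 was 93.5 FPKM in IR, 4.97 in IRLac, 10.6 in IRLacz and 4 in sham. For this gene the unadjusted limma p was 0.00047 and the exact permutation p 0.0476.

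The entry that passed was an assembled locus without a gene name, BGI_novel_G000424. It was at 1.5, 0.93, 2.18, 1.97 and 1.62 FPKM in IR replicates 1 to 5 and listed at 0 in all 5 IRLac samples. It was at 1.44 to 2.5 FPKM in IRLacz and 1.66 to 6.04 FPKM in sham, so IRLac was the group in which it was listed at 0. The limma adjusted p was 0.019 and ranged from 0.0026 to 0.11 when each sample was left out in turn. In 27 entries of the table a sample is listed at 0 although the median over samples is above 5 FPKM, so a 0 here can be a failed estimate.

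The interferon-stimulated antiviral effectors were the set with the largest share of members lower in IRLac. Of 78 genes on the list 75 were in the table and 74 were tested. Their IRLac mean was below the IR mean on the log2 scale in 73, and 69 of the 74 were lower at an unadjusted p under 0.05, 0 were higher, and 0 passed the adjustment over all entries. The groups overlapped in every effector: all 5 IRLac samples lay below all 5 IR samples in 0 of the 74, beside 0.294% of all entries. The median log2 difference was -0.76, beside 0.0024 for all tested entries. Per sample, the mean log2(FPKM + 1) of the 74 genes was 4.87, 4.15, 4.64, 4.9 and 3.47 in IR replicates 1 to 5 and 3.39, 3.49, 3.33, 3.77 and 3.85 in IRLac replicates 1 to 5. Thus 4 of the IR samples lay above every IRLac sample, and IR replicate 5 lay among the IRLac samples. The list mean was between 2.62 and 2.85 in sham, below all 10 samples, and the IRLac mean FPKM was above the sham mean in 71 of the 74 genes. In whole-kidney RNA, fewer cells of a type and less RNA per cell cannot be told apart.

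**Figure D1:**
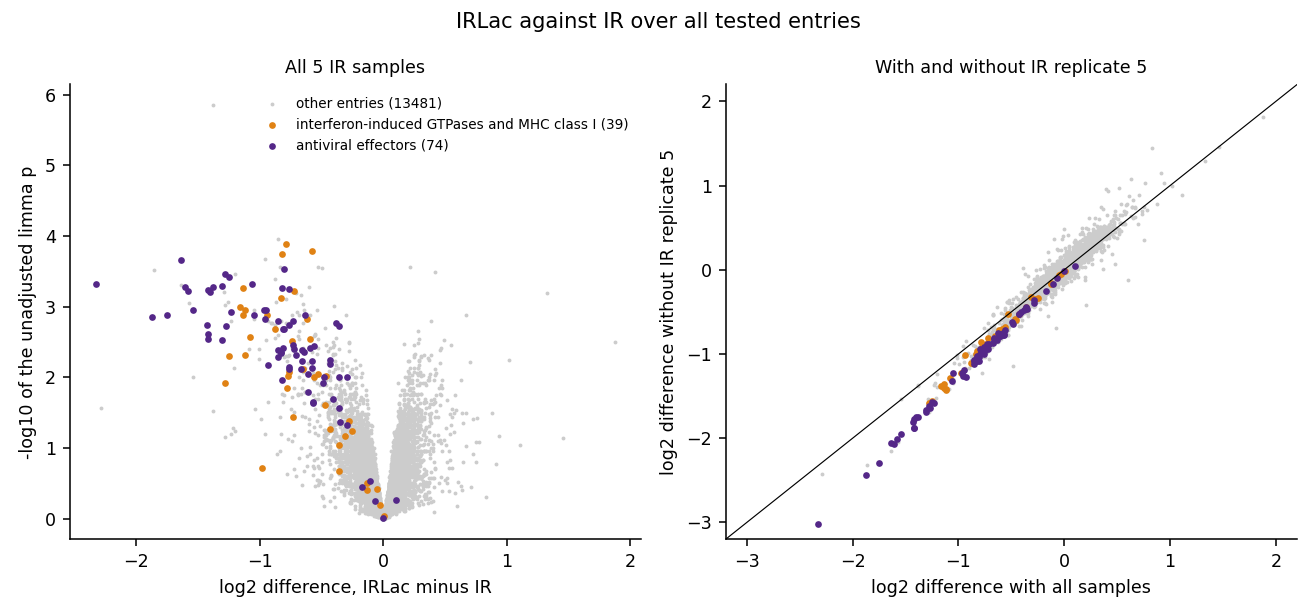
Left: log2 difference between IRLac and IR (horizontal) against the -log10 of the unadjusted limma p (vertical) for the tested entries. Right: the log2 difference with all samples (horizontal) against the one without IR replicate 5 (vertical), with the line of equality. Purple points are the 74 antiviral effectors, which lie to the left of 0 with 1 exception and below the line, and orange points are interferon-induced GTPases and MHC class I genes.

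Irf7, which encodes the transcription factor that amplifies interferon production, had the lowest log2 difference on the list. It was at 219, 77.6, 175, 228 and 13.8 FPKM in IR replicates 1 to 5 and at 13.8, 17.4, 17.3, 23.1 and 26.1 FPKM in IRLac replicates 1 to 5. The log2 difference was -2.33 (SE 0.549, limma adjusted p = 0.25, two-sided exact permutation p = 0.0476). IR replicates 1 to 4 were above all IRLac samples, and IR replicate 5 was at the lowest IRLac value. Isg15, a ubiquitin-like protein that is attached to other proteins, was at 119.9, 38.8, 89.9, 126 and 11 FPKM in IR and at 14.6, 11.4, 9.92, 25 and 17.7 FPKM in IRLac (log2 difference -1.87, SE 0.497, limma adjusted p = 0.29, lower in 5 of 5 IRLac samples than IR replicates 1 to 4). Ifit1, which binds foreign RNA, averaged 18.8 ± 13 FPKM in IR (SD, n = 5) and 3.49 ± 0.919 FPKM in IRLac (n = 5). For both genes the groups overlapped through IR replicate 5 alone.

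Bst2, the membrane protein tetherin that holds budding viruses at the cell surface, had the smallest unadjusted p among the effectors. It was at 381, 177, 315, 373 and 70.1 FPKM in IR replicates 1 to 5 and at 65.2, 58.5, 58.5, 101 and 79.4 FPKM in IRLac replicates 1 to 5 (log2 difference -1.64, SE 0.359, limma adjusted p = 0.25, exact permutation p = 0.0238). Oas3, an enzyme that makes the oligoadenylate that activates RNase L, was at 5.02, 2.42, 4.44, 5.84 and 0.61 FPKM in IR and at 0.6, 0.4, 0.49, 1.05 and 1.17 FPKM in IRLac (log2 difference -1.28, SE 0.29, limma adjusted p = 0.25). In both genes, 3 of the 5 IRLac samples were below every IR sample. Rsad2, which encodes viperin, averaged 13 ± 4.83 FPKM in IR and 6.53 ± 0.904 FPKM in IRLac, or -0.82 on the log2 scale (SE 0.197, limma adjusted p = 0.25). Its IRLac values, 5.37 to 7.29 FPKM, lay below all sham values, 8.16 to 11 FPKM, a difference that was not tested. Gm4951 was at 3.96, 1.9, 2.87, 3.79 and 1.5 FPKM in IR and at 0.81, 1.11, 1.02, 1.59 and 1.1 FPKM in IRLac, with 4 of 5 IRLac samples below every IR sample. Ifit3 averaged 113 ± 48.2 FPKM in IR and 53.7 ± 10.2 FPKM in IRLac, and shares most of its sequence with a neighbouring copy, so its level is uncertain.

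**Figure D2:**
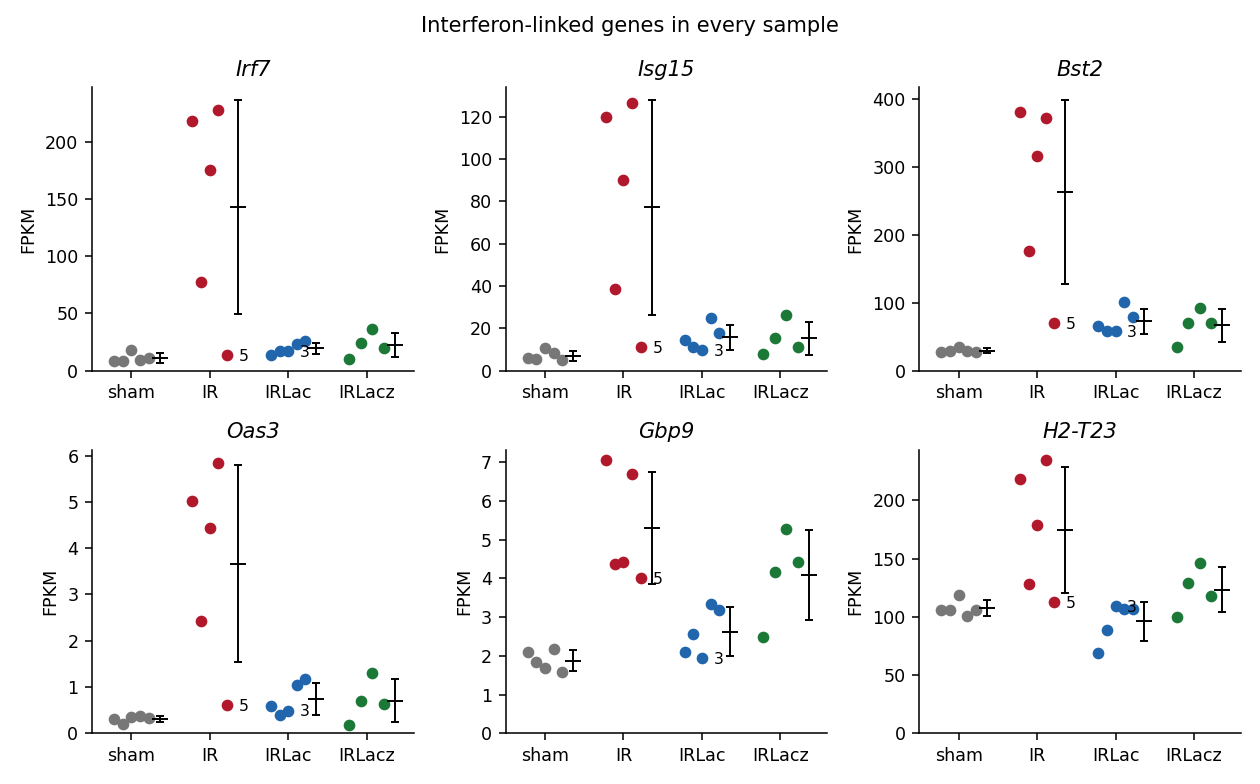
FPKM (vertical axis, from 0) of 6 genes in each sample of the 4 groups, with the group mean and SD beside the points. IR replicate 5 and IRLac replicate 3 are numbered. In Irf7, Isg15, Bst2 and Oas3 IR replicate 5 lies at the level of the IRLac samples, and in Gbp9 and H2-T23 all 5 IRLac samples lie below all 5 IR samples.

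The promoters of 4 effectors are shown because interferon-stimulated response elements are the sites through which these genes are known to be raised together. They were the 4 effectors with the smallest unadjusted p that hold the searched core and do not lie on a chromosome that the rule left out. An effector with a smaller p that is not shown therefore need not lack the core. The 4 include Ifi44 and Trim30a, which the rule for named genes did not pick. Each window runs from 250 bases before to 50 bases after the start site in RefSeq on build GRCm38.p6, which is not the authors' build, 5′ to 3′ on the gene's strand. Capitals mark matches to the core GAAANNGAA on either strand, where N is any base. All 4 genes are on the minus strand.
Bst2 (chr8:71537423-71537722): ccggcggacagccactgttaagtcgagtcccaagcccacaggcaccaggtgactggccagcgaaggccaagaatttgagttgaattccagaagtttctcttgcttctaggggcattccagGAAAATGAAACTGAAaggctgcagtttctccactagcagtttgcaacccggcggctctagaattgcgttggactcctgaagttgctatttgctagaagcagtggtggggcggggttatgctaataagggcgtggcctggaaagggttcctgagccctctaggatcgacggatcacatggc
Oas3 (chr5:120777610-120777909): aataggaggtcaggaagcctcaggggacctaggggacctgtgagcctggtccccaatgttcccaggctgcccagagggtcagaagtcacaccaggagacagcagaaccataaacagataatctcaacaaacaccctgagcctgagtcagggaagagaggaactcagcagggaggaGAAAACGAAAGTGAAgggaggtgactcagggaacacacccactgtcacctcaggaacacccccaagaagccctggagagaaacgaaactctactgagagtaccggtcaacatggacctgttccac
Ifi44 (chr3:151749861-151750160): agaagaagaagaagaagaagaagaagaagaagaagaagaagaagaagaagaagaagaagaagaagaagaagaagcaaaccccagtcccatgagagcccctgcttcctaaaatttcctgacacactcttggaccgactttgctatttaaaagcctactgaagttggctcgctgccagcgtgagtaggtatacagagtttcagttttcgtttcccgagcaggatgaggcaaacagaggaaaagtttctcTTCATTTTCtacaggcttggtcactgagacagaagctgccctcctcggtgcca
Trim30a (chr7:104465144-104465443): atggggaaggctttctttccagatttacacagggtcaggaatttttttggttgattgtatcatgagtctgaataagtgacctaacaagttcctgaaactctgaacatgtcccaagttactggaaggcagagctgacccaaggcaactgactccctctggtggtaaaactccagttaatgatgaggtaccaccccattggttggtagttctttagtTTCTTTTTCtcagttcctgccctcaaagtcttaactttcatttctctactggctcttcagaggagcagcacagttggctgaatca
The Bst2 window held overlapping matches whose first bases are at -130 and -124 relative to the start site, and the Oas3 window held them at -75 and -69. Ifi44 and Trim30a held the core on the opposite strand, in the form TTCNNTTTC, with its first base at -3 and -35. Of all 27025 genes with a window, 9.76% held this core, and 9.55% held the gamma-activated site TTCNNNGAA, a second kind of interferon-responsive site. Among the tested effectors 59 of 74 had a window, of which 30 held the first motif and 10 the second. Because this is 79.7% of the list, under the 80% set as a minimum, a comparison of the list's share with that of all promoters is void. A match describes letters in a window and is neither a site in use nor a cause.

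Ifi44 averaged 12.7 ± 6.49 FPKM in IR, 4.21 ± 1.13 FPKM in IRLac and 4.93 ± 1.18 FPKM in sham, and Trim30a 9.36 ± 4.27, 3.64 ± 1.01 and 1.97 ± 0.281 FPKM. The IRLacz samples had effector list means of 3.03, 3.71, 4 and 3.71. Tested directly against IRLacz, 0 of 74 effectors were higher in IRLac and 1 was lower at an unadjusted p under 0.05, beside 9.03% higher and 6.94% lower among all entries, with a median log2 difference of -0.04. The effector list means of the gavaged groups thus overlapped, 3.33 to 3.85 in IRLac and 3.03 to 4 in IRLacz, which does not show that they were equal.

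Upstream of the effectors, the interferons themselves were too low to test. Of 12 ligand genes 3 were in the table: Ifnb1 was listed at 0 in all 10 samples but IRLac replicate 4, at 0.1 FPKM, Ifnz was at 0 to 0.37 FPKM and Ifng, the ligand made by T and NK cells, at 0 to 0.3 FPKM. Among receptors and transducers 3 of 12 were lower at an unadjusted p under 0.05 and 0 higher, with a median log2 difference of -0.043. Without IRLac replicate 3 it was again 3 of 12, with a median of 0.017. Stat2, a transcription factor that the receptor activates, averaged 21.5 ± 9.14 FPKM in IR and 9.74 ± 2.12 FPKM in IRLac (log2 difference -0.97, SE 0.252, limma adjusted p = 0.28, with 3 of 5 IRLac samples below every IR sample). The subunits of the type I interferon receptor, chosen for mention after their values were seen, averaged 15.6 ± 1.43 and 14.8 ± 1.34 FPKM (Ifnar1) and 43.1 ± 3.78 and 39 ± 4.78 FPKM (Ifnar2), with log2 differences of -0.064 and -0.14. 

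Of the nucleic acid sensors and adaptors 9 of 21 were lower at an unadjusted p under 0.05, 0 were higher, and the median log2 difference was -0.27. Zbp1, a sensor of Z-form nucleic acid that can start necroptosis, averaged 19.1 ± 9.45 FPKM in IR and 5.96 ± 2.2 FPKM in IRLac (log2 difference -1.4, SE 0.34, limma adjusted p = 0.25, with 3 of 5 IRLac samples below every IR sample). Ifi204, a DNA sensor, averaged 15.8 ± 7.53 and 5.65 ± 2.02 FPKM. Its relative Ifi206, among the 10 lower entries with the smallest unadjusted p, averaged 2.15 ± 0.996 and 0.678 ± 0.175 FPKM. Both belong to a family of similar neighbouring genes, and their single levels are uncertain.

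Among the interferon regulatory factors 3 of 12 were lower at an unadjusted p under 0.05 and 0 higher, with a median of -0.15. Without IR replicate 5 it was 5 of 12. Beside Irf7 the 3 included Irf9, the DNA-binding partner of the STAT proteins, at 30.2 ± 11.4 FPKM in IR and 15.6 ± 3.68 FPKM in IRLac. Of the feedback inhibitors 5 of 13 were lower and 0 higher, with a median of -0.13. Usp18, which removes ISG15 and blocks the interferon receptor, was at 19.5, 7.67, 17.5, 23.4 and 2.7 FPKM in IR and at 2.3, 2.91, 2.79, 3.59 and 4.61 FPKM in IRLac (log2 difference -1.58, SE 0.381, limma adjusted p = 0.25). Socs1, an inhibitor of JAK kinases, did not overlap between the groups: it was at 8.29, 5.74, 4.85, 4.94 and 4.27 FPKM in IR and at 2.9, 2.72, 1.88, 3.94 and 2.6 FPKM in IRLac. Here IR replicate 5 was low in IR yet above every IRLac sample (log2 difference -0.79, SE 0.196, limma adjusted p = 0.28, exact permutation p = 0.00794, the smallest this test can give).

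The interferon-induced GTPases, which attack the membranes around pathogens in infected cells, had the lowest median after the list of red blood cell genes. Of 21 genes 18 were in the table and 16 were tested. All 16 had a lower IRLac mean, 14 were lower at an unadjusted p under 0.05, 1 did not overlap between the groups, and the median log2 difference was -1.06. Gbp9 was at 7.04, 4.36, 4.42, 6.69 and 4 FPKM in IR replicates 1 to 5 and at 2.09, 2.57, 1.95, 3.33 and 3.19 FPKM in IRLac replicates 1 to 5, so the groups did not overlap (log2 difference -0.79, SE 0.163, limma adjusted p = 0.25, exact permutation p = 0.00794). Igtp averaged 25.6 ± 11.2 FPKM in IR, 10.3 ± 2.48 FPKM in IRLac and 9.33 ± 1.57 FPKM in sham. Gbp2 averaged 24.3 ± 9.15 and 14.1 ± 5.01 FPKM (log2 difference -0.73, SE 0.324, limma adjusted p = 0.83). Guanylate-binding proteins form families of similar copies, and reads may be split between them.

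Genes of MHC class I presentation, which shows peptides from inside the cell to T cells, lay lower in 23 of 24 tested members. At an unadjusted p under 0.05, 15 were lower and 0 higher, 2 did not overlap, and the median log2 difference was -0.55. H2-T23, a class I molecule recognised by receptors of NK and T cells, was at 218, 128, 179, 235 and 113 FPKM in IR and at 69.2, 89.1, 109, 106 and 107 FPKM in IRLac (log2 difference -0.82, SE 0.175, limma adjusted p = 0.25, exact permutation p = 0.00794). The highest IRLac value was just below the lowest IR value, that of replicate 5. H2-T22 was at 84.8, 58, 73, 85.3 and 47.7 FPKM in IR and at 39.7, 45, 45, 48.6 and 48.2 FPKM in IRLac. Its 5 IRLac values lay below all 5 sham values, 64.95 to 77 FPKM, a difference that was not tested. Some class I genes have similar copies, so single levels may be uncertain. MHC class II genes, which serve professional antigen-presenting cells, did not lie to 1 side: 1 of 11 tested was higher and 1 lower at an unadjusted p under 0.05, with a median of -0.082, and 0 passed in either direction without IRLac replicate 3. The 2 genes were H2-DMb2, at 0.662 ± 0.922 FPKM in IR and 1.65 ± 0.891 FPKM in IRLac, which shares its sequence with a copy, and the protease gene Ctss, at 202 ± 37.9 and 141 ± 38.8 FPKM.

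IR replicate 5 set how many of these genes passed. It was below the other 4 IR samples in 73 of the 74 effectors, within the range of the IRLac samples in 69 and below that range in 5. All 5 IRLac samples lay below IR replicates 1 to 4 in 62 of the 74 effectors, beside 286 of all 13594 entries (2.1%). Without IR replicate 5, 110 entries were lower in IRLac at a limma adjusted p under 0.05 (0.809%) and 6 higher (0.0441%). Of the 110, 65 were among the 158 distinct tested members of the 7 lists of interferon receptors, sensors, regulatory factors, effectors, inhibitors, GTPases and MHC class I, and 39 were on no list. The count was 51 of 74 for effectors, 9 of 16 for GTPases, 6 of 21 for sensors and 4 of 24 for MHC class I. Because replicate 5 was singled out after its values were seen, these counts describe the other 4 IR samples and are not a test independent of that choice. Leaving out any other IR sample or any IRLac sample gave at most 1 call.

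With both samples that stood apart left out, 36 of 74 effectors passed the adjusted threshold, beside 0.53% lower among all entries, with a median of -0.91. Without IRLac replicate 3 alone, 0 passed (0% of all entries), 63 of 74 were lower at an unadjusted p under 0.05, beside 2.69% of all entries, and the median was -0.7. Irf7 then had a log2 difference of -2.29 (limma adjusted p = 0.58), and without IR replicate 5 it was -3.02 (limma adjusted p = 0.00032). The direction of the effectors did not depend on either sample, and their passing depended on IR replicate 5.

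**Figure D3:**
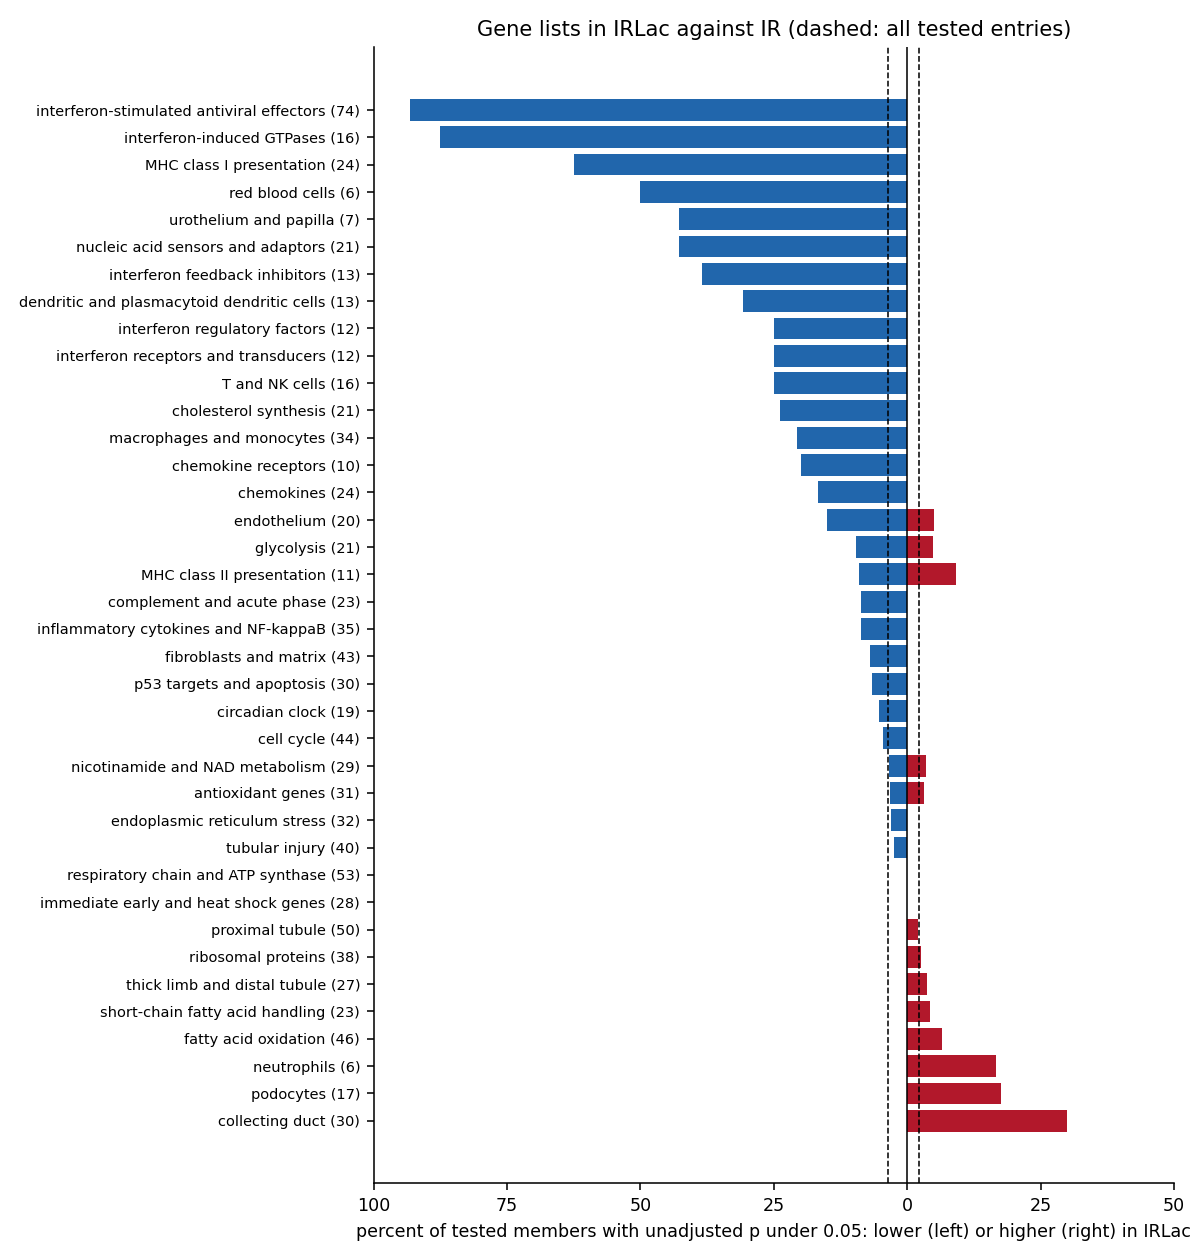
Percent of the tested members of each gene list with an unadjusted limma p under 0.05, lower in IRLac to the left and higher to the right, with the number tested in brackets, for lists with 5 or more tested members. Dashed lines mark all tested entries, 3.54% lower and 2.24% higher. The antiviral effectors (69 of 74), GTPases (14 of 16) and MHC class I genes (15 of 24) reach farthest to the left and the collecting duct genes (9 of 30) farthest to the right.

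Chemokines and cytokines, which draw and instruct leukocytes, lay lower in IRLac in fewer members. Of 24 chemokines 4 were lower at an unadjusted p under 0.05 and 0 higher, with a median of -0.16. Ccl4, which attracts monocytes and T cells, had the smallest unadjusted p of all named genes in the comparison: it was at 3.64, 2.6, 3.28, 3.64 and 1.27 FPKM in IR and at 1.43, 0.62, 0.89, 1.22 and 1.38 FPKM in IRLac (log2 difference -0.85, SE 0.174, limma adjusted p = 0.25). IR replicate 5 was again within the IRLac range. Ccl8 averaged 20.3 ± 5.69 and 10.5 ± 5.8 FPKM, and Cxcl10, an interferon-induced chemokine, 40.9 ± 17 and 28.3 ± 13.3 FPKM (log2 difference -0.53, SE 0.38, limma adjusted p = 0.96). For Cxcl10 the difference was within the spread between samples.

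Of 35 tested genes for inflammatory cytokines and NF-kappaB 3 were lower and 0 higher, with a median of -0.1. Without IRLac replicate 3 it was 2 of 35, beside 2.69% of all entries, with a median of 0.008. Il1b was at 4.12, 4.12, 3.39, 3.94 and 3.05 FPKM in IR and at 1.43, 2.08, 1.28, 2.41 and 3.27 FPKM in IRLac, with 4 of 5 IRLac samples below every IR sample (log2 difference -0.64, SE 0.165, limma adjusted p = 0.28). Il6, a cytokine that drives acute phase signalling, averaged 1.16 ± 0.483 and 0.51 ± 0.443 FPKM. For chemokine receptors 2 of 10 were lower and 0 higher, with a median of -0.22. Leaving out IRLac replicate 3 gave 0 of 10 and a median of -0.13. Of complement and acute phase genes 2 of 23 were lower, 1 without IR replicate 5 and 0 without IRLac replicate 3.

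Markers of leukocytes were examined because they could carry interferon-stimulated RNA. Of 34 macrophage and monocyte genes 7 were lower at an unadjusted p under 0.05, 0 were higher, and the median log2 difference was -0.31. The count was 3 of 34 and the median -0.14 without IRLac replicate 3. Their summed level was 2250 to 3070 FPKM in IR, 1322 to 2731 in IRLac and 186 to 234 in sham, and none was at 0 throughout. The defining marker Adgre1 averaged 20.2 ± 1.55 FPKM in IR and 16.4 ± 3.92 FPKM in IRLac (log2 difference -0.31, SE 0.193, limma adjusted p = 0.93). The members with the smallest unadjusted p were Ly6c2 and Fcgr1. Ly6c2, a surface protein of inflammatory monocytes, was at 16.3, 8.41, 6.31, 6.99 and 3.26 FPKM in IR and at 1.21, 2.15, 1.94, 2.9 and 4.84 FPKM in IRLac, and the Fc receptor gene Fcgr1 averaged 16.1 ± 4.92 and 8.73 ± 2.54 FPKM. The part of macrophage number in the effector levels was not tested.

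T and NK cell genes lay lower in all 16 tested members, 4 of them at an unadjusted p under 0.05, with a median of -0.28. The 26 in the table summed to 40.1 to 78.7 FPKM in IR and 30.8 to 69.4 FPKM in IRLac. Gzmb, a protease of cytotoxic granules, was at 1.6, 3.39, 1.3, 1.36 and 1.09 FPKM in IR and at 0.39, 0.15, 0.2, 0.81 and 0.35 FPKM in IRLac, without overlap (log2 difference -0.96, SE 0.208, limma adjusted p = 0.25, exact permutation p = 0.00794). Gzma averaged 1.47 ± 0.887 and 0.386 ± 0.296 FPKM. Both are low genes, whose change is understated by the scale used.

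In the dendritic cell list 4 of 13 were lower and 0 higher, with a median of -0.18, and 2 of 13 were lower without IRLac replicate 3. Bst2 is on it as well as among the effectors, and Klk1 is also on the thick limb and distal tubule list. Its 19 genes summed to 845 to 1060 FPKM in IR, 717 to 1109 in IRLac and 1773 to 2051 in sham. The sum was thus highest in sham, although the mean log2 level of the tested members was lowest there, at 2.38 to 2.60. Irf8, a transcription factor of dendritic cells, averaged 20.4 ± 2.72 and 16 ± 2.26 FPKM, and Siglech, which marks plasmacytoid dendritic cells and was too low to test, was at 0.06 to 0.24 FPKM in IR and 0.06 to 0.6 FPKM in IRLac. For neutrophils 1 of 6 tested genes was higher, Hdc, an enzyme that makes histamine, at 3.83, 3.16, 3.39, 3.95 and 3.83 FPKM in IR and 4.03, 4.43, 5.59, 4.93 and 4.41 FPKM in IRLac. With IRLac replicate 3 left out, 3 of the 6 were higher, beside 2.83% of all entries, and the median was 0.14 in place of 0.1. The more usual neutrophil marker S100a8 averaged 4.34 ± 1.41 and 9.97 ± 6.97 FPKM (log2 difference 0.78, SE 0.424, limma adjusted p = 0.91), and was above every IR sample in 4 of 5 IRLac samples but lowest of all in IRLac replicate 3. Of 4 B and plasma cell genes tested 0 passed the unadjusted threshold.

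Genes of red blood cells lay lower in IRLac than in IR. Of 9 on the list 6 were tested, 3 were lower at an unadjusted p under 0.05, 3 did not overlap between the groups, and the median log2 difference was -1.11. The alpha-globin gene Hba-a2 was at 22, 13.1, 58.7, 18.8 and 25 FPKM in IR and at 8.84, 10.2, 8.49, 8.47 and 3.86 FPKM in IRLac (log2 difference -1.54, SE 0.534, limma adjusted p = 0.55, exact permutation p = 0.00794). Its twin Hba-a1 averaged 39.4 ± 22.8 and 13.2 ± 3.58 FPKM, and reads of both copies may be split. Sham samples were higher than both, at 55.4 to 343 FPKM for Hba-a2, and varied several-fold among themselves. The list summed to 58.5 to 225 FPKM in IR and 29 to 50.9 FPKM in IRLac, so the groups did not overlap in their summed globin-rich signal. Its relation to the other results was not tested.

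Urothelium and papilla genes, which line the renal pelvis, were lower at an unadjusted p under 0.05 in 3 of 7 tested members, with a median of -0.4. Krt15 averaged 9.95 ± 3.67 FPKM in IR and 4.38 ± 1.69 FPKM in IRLac, and the uroplakin gene Upk3a 3.72 ± 1.65 and 1.55 ± 0.315 FPKM. The list summed to 15.6 to 42.2 FPKM in IR and 8.07 to 20.8 FPKM in IRLac, so the ranges overlapped. Their part in the other results was not tested.

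Levels of tubule injury markers overlapped between the groups. Of 40 genes 1 was lower at an unadjusted p under 0.05 and 0 higher, with a median of -0.1, or 0.048 without IRLac replicate 3. Havcr1, which encodes kidney injury molecule 1 of damaged proximal tubule, was at 542, 503, 517, 474 and 403 FPKM in IR and at 546, 739, 211, 462 and 459.96 FPKM in IRLac, and at 0.92 to 1.64 FPKM in sham. Only IRLac replicate 3 lay below the IR range. Its log2 difference was -0.11 (SE 0.314, limma adjusted p = 1), and 0.16 without IRLac replicate 3. Lcn2, which encodes lipocalin 2, averaged 387 ± 106 and 319 ± 101 FPKM (log2 difference -0.3, SE 0.3, limma adjusted p = 0.99). The member that passed the unadjusted threshold was the growth factor gene Hbegf, at 21.6 ± 3.38 and 16.4 ± 3.06 FPKM.

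**Figure D4:**
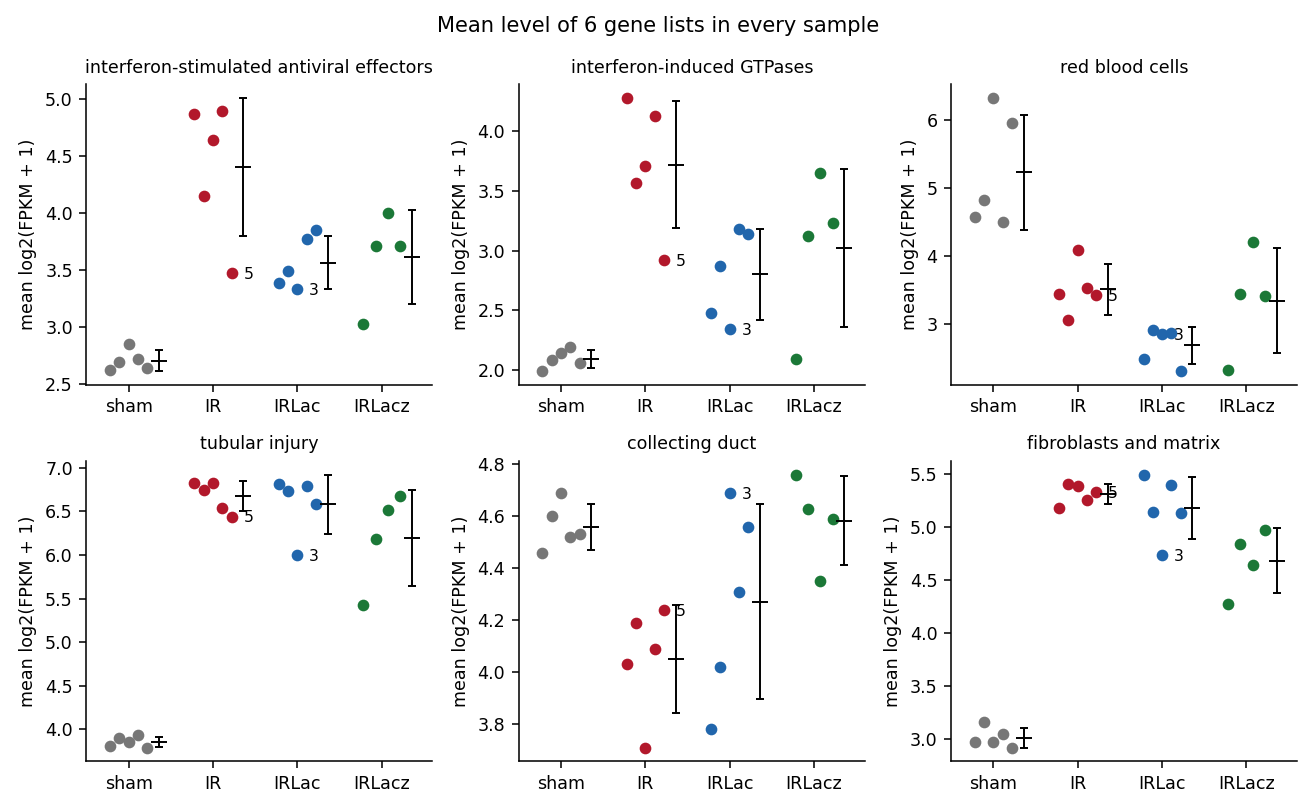
Mean log2(FPKM + 1) over the tested members of 6 gene lists (vertical axis) in each sample of the 4 groups, with the group mean and SD beside the points. IR replicate 5 and IRLac replicate 3 are numbered. The effector mean of IR replicate 5 is 3.47, among the IRLac values, and the tubular injury mean of IRLac replicate 3 is 6, below the other IRLac samples.

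Along the nephron the groups differed little in the proximal tubule and lay to 1 side farther down. Of 50 proximal tubule genes 1 was higher at an unadjusted p under 0.05 and 0 lower, with a median of -0.013. Without IR replicate 5 it was 3 of 50, beside 2.95% of all entries, with a median of 0.046, and without IRLac replicate 3 the median was -0.13. Slc34a1, the phosphate transporter of that segment, averaged 1154 ± 207 FPKM in IR and 1118 ± 260 FPKM in IRLac, beside 2755 ± 152 FPKM in sham. The gene past the unadjusted threshold was Slc7a9, a cystine transporter, at 43.2 ± 6.89 and 52.1 ± 8.26 FPKM. Podocyte genes were higher in 3 of 17 and lower in 0, including Podxl at 34.9 ± 4.02 and 40.6 ± 2.96 FPKM.

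All 27 tested genes of the thick limb and distal tubule had a higher IRLac mean, or 26 of 27 with median-ratio scaling, but only 1 passed the unadjusted threshold, and the median log2 difference was 0.2. Without IR replicate 5 it was 3 of 27 with a median of 0.32, and without IRLac replicate 3 it was 0 of 27 with a median of 0.086. Umod, which encodes uromodulin, was at 1092, 1344, 842, 1326 and 1364 FPKM in IR and at 647, 927, 2176, 1430.1 and 1992 FPKM in IRLac, so that IRLac held both the lowest and the highest of the 10 values (log2 difference 0.15, SE 0.263, limma adjusted p = 0.99, and -0.039 without IRLac replicate 3).

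In the collecting duct list all 30 genes had a higher IRLac mean under each scaling, 9 were higher at an unadjusted p under 0.05, 0 were lower, and the median log2 difference was 0.23. Without IRLac replicate 3 it was 5 of 30, beside 2.83% of all entries, with a median of 0.12. Slc26a4, which encodes the bicarbonate exchanger pendrin of intercalated cells, was at 8.36, 12.8, 11.5, 12.6 and 20.5 FPKM in IR and at 19.5, 17, 22.5, 15.8 and 16.2 FPKM in IRLac (log2 difference 0.48, SE 0.17, limma adjusted p = 0.56, or 0.037 with a log2 difference of 0.65 without IR replicate 5). Its IR replicate 5, as in the interferon genes, lay with the IRLac samples. Tfcp2l1, a transcription factor of collecting duct cells, averaged 31.2 ± 1.69 and 36.8 ± 5.03 FPKM, with 4 of 5 IRLac samples above every IR sample. The list means, 3.71 to 4.24 in IR and 3.78 to 4.69 in IRLac, overlapped.

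Genes of fibroblasts and matrix, which carry the scarring that follows injury, were lower at an unadjusted p under 0.05 in 3 of 43 and higher in 0, with a median of -0.1. It was 1 of 43 without IRLac replicate 3, with a median of -0.032. Col1a1, the main fibrillar collagen, was at 168, 215, 215, 169 and 195 FPKM in IR and at 235, 168, 105, 199.8 and 132 FPKM in IRLac (log2 difference -0.24, SE 0.199, limma adjusted p = 0.98). Acta2, the actin of myofibroblasts, averaged 98.3 ± 15.2 and 87.7 ± 36.6 FPKM (log2 difference -0.24, SE 0.195, limma adjusted p = 0.97). The lowest p on the list was that of Fbln1, a glycoprotein of elastic fibres, at 20.5 ± 2.08 and 16 ± 2.53 FPKM. Endothelial genes were lower in 3 of 20 and higher in 1, with a median of -0.054. They were lower in 1 of 20 without IR replicate 5 and higher in 0 without IRLac replicate 3. Cdh5, which encodes the cadherin of endothelial junctions, averaged 13.4 ± 0.635 and 11.3 ± 1.01 FPKM.

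In the lists of proliferation and stress genes the counts changed when IR replicate 5 was left out. Of 44 cell cycle genes 2 were lower and 0 higher, with a median of -0.18. Without IR replicate 5 it was 7 of 44, beside 4.6% lower among all entries, and without IRLac replicate 3 it was 0 of 44, with a median of -0.048. Ccne1, which encodes cyclin E, averaged 2.56 ± 0.464 and 1.96 ± 0.331 FPKM. In the endoplasmic reticulum stress list 1 of 32 was lower, or 7 of 32 without IR replicate 5. The 1 was Ddit3, a transcription factor of the unfolded protein response, at 35.1, 32, 32.3, 29.5 and 18.1 FPKM in IR and 23.5, 18.6, 21, 18.5 and 21.4 FPKM in IRLac. As in the interferon genes, IR replicate 5 alone lay apart from the other IR samples, just below the IRLac range (log2 difference -0.47, SE 0.129, limma adjusted p = 0.31, or 0.00088 without IR replicate 5). The chaperone gene Hspa5 averaged 312 ± 74 and 250 ± 33.3 FPKM (limma adjusted p = 0.88, with a log2 difference of -0.3). Of 28 immediate early and heat shock genes 0 passed the unadjusted threshold, or 2 without IR replicate 5. For p53 targets and apoptosis 2 of 30 were lower and 0 higher, which became 4 lower without IR replicate 5 and 1 lower and 1 higher without IRLac replicate 3. The 2 included Gadd45a, a growth arrest gene, at 67 ± 7.71 and 50.3 ± 5.63 FPKM.

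Fatty acid oxidation genes, the main fuel pathway of tubule cells, were higher at an unadjusted p under 0.05 in 3 of 46 and lower in 0, with a median of 0.056. Without IRLac replicate 3 it was 2 of 46, beside 2.83% of all entries, with a median of -0.017. Ppargc1a, a coactivator of mitochondrial genes, was at 5.38, 5.61, 4.7, 6.91 and 6.76 FPKM in IR and at 5.37, 7.18, 9.44, 7.05 and 9.99 FPKM in IRLac, beside 8.94 to 11.7 FPKM in sham. In it 4 of 5 IRLac samples lay above every IR sample (log2 difference 0.34, SE 0.133, limma adjusted p = 0.7, exact permutation p = 0.0794). Of 53 respiratory chain and ATP synthase genes 50 had a higher IRLac mean, but 0 passed the unadjusted threshold, and the median of 0.077 was -0.018 without IRLac replicate 3. In cholesterol synthesis 5 of 21 were lower and 0 higher, with a median of -0.11, and 2 of 21 were lower without IR replicate 5. The 5 included Sqle, which encodes squalene epoxidase, at 54.1 ± 6.17 and 44.2 ± 3.61 FPKM. In glycolysis 2 of 21 were lower and 1 higher, or 1 and 0 without IRLac replicate 3 and 2 and 2 without IR replicate 5. Hexokinase 2, Hk2, averaged 5.61 ± 0.957 and 3.8 ± 1.24 FPKM.

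Short-chain fatty acids are made by gut bacteria. For their handling in the kidney 1 of 23 tested genes was higher and 0 lower, with a median of 0.056, and for nicotinamide and NAD metabolism 1 of 29 was higher and 1 lower, with a median of 0.024. Without IRLac replicate 3 the first list had 0 of 23 higher, and the medians of the first and second list were -0.0077 and -0.014. Without IR replicate 5 the second list had 2 higher and 2 lower. Nnmt, which methylates nicotinamide, was at 13.6, 11.2, 11.4, 9.69 and 9.71 FPKM in IR and at 11.1, 7.85, 5.05, 9.35 and 7.08 FPKM in IRLac, and 0.09 to 2.07 FPKM in sham (log2 difference -0.45, SE 0.237, limma adjusted p = 0.91, exact permutation p = 0.0317). In it 4 of 5 IRLac samples lay below every IR sample. Antioxidant genes were higher in 1 and lower in 1 of 31, clock genes lower in 1 of 19, and ribosomal protein genes higher in 1 of 38. Of these, the antioxidant gene that was lower and the ribosomal one no longer passed without IR replicate 5, nor did the clock and ribosomal ones without IRLac replicate 3. Of adipose tissue and adrenal gland genes 1 each was tested and 0 passed the unadjusted threshold.

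Outside the lists, the named genes with the smallest unadjusted p included some without an overlap between the groups. Hsd17b2, an enzyme that inactivates estradiol and testosterone, was at 7.95, 7.16, 6.84, 6.57 and 7.51 FPKM in IR and at 2.82, 5.76, 4.98, 5 and 5.36 FPKM in IRLac, while IRLacz held 7.1 to 9.66 FPKM and sham 17.7 to 20.9 FPKM (log2 difference -0.53, SE 0.118, limma adjusted p = 0.25, exact permutation p = 0.00794). IRLac was thus the group farthest from sham for this gene. Lrrc32, which docks latent TGF-beta on the cell surface, was at 20.8, 19.9, 22.6, 18.8 and 17.8 FPKM in IR and at 17, 13.4, 10.5, 17.6 and 11.6 FPKM in IRLac (log2 difference -0.5, SE 0.112, limma adjusted p = 0.25). Rnf185, a ubiquitin ligase of the endoplasmic reticulum, was higher in all 5 IRLac samples, at 17.3, 16.5, 16.1, 14.7 and 17.6 FPKM, than in the IR samples, at 13.2, 13.5, 14.5, 13.7 and 14.6 FPKM (log2 difference 0.22, SE 0.0499, limma adjusted p = 0.25). Ssc4d, a scavenger receptor gene, averaged 1.21 ± 0.208 and 1.95 ± 0.246 FPKM, and Mchr1, a receptor for melanin-concentrating hormone, 0.508 ± 0.274 and 1.39 ± 0.361 FPKM, both without overlap.

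IRLac and IRLacz, compared directly in the model of all 19 samples, differed in 3 entries at a limma adjusted p under 0.05: 2 higher in IRLac (0.0147%), and BGI_novel_G000424 lower (0.00736%). The higher ones, named because they passed, were Cav3, the caveolin of muscle cells, at 2.46 ± 0.385 FPKM in IRLac and 1.03 ± 0.25 FPKM in IRLacz (log2 difference 0.77, SE 0.117, limma adjusted p = 0.019), and Pmp22, a membrane protein of myelin and other cells, at 17.8 ± 1.76 and 12.7 ± 1.21 FPKM (log2 difference 0.46, SE 0.0762, limma adjusted p = 0.048). In this comparison 31 of 43 fibroblast and matrix genes and 31 of 44 cell cycle genes were higher in IRLac at an unadjusted p under 0.05, beside 9.03% of all entries, and 17 of 40 tubular injury genes. With these 2 groups alone in the model, 1 entry passed (0.00736%). Without IRLac replicate 3, the IRLac sample nearest sham, 490 entries passed the adjusted threshold (3.6%). The IRLacz sample nearest sham was replicate 1, at 20.91 on the first principal component, beside -33.33 to -11.86 in the other IRLacz samples. Its matrix, cell cycle and tubular injury list means were 4.27, 2.26 and 5.43. They were 4.64 to 4.97, 2.70 to 2.81 and 6.18 to 6.67 in the other IRLacz samples. In IRLac they were 4.73 to 5.49, 2.62 to 3.41 and 6.00 to 6.81. The list counts were not taken without IRLacz replicate 1.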

How the data were processed

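The authors deposited 1 table of FPKM values for 19 samples and 19287 entries. HISAT, StringTie 1.0.4 and build mm9 are named in the submitters' processing notes. The sources used here give no annotation, strand, handling of shared reads or read depth. The lowest values of 776 low genes put relative depth between 1.000 and 1.008. Only values close to each gene's lowest entered this estimate, which holds it near 1. It cannot decide whether depth was alike and could miss a sample of much lower depth. FPKM totals ran from 545590 to 584798.

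Gene IDs were named through RefSeq (GRCm38.p6, names and promoter windows only), which matched 18238 entries. A further 933 were assembled loci and 116 had no match. The 13594 entries that reached 1 FPKM in 4 or more samples were put on a log2 scale after adding 1 and fitted in limma 3.58.1 (R 4.3.3; trend, 1 model of all 19 samples, 15 residual degrees of freedom), with Benjamini-Hochberg adjustment within each comparison and a threshold of 0.05. These steps were tested on simulated data with independent noise. In those data no sample stood apart over many genes, as IR replicate 5 and IRLac replicate 3 did here. Samples were grouped by their titles.

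The members, the 42 gene lists and the tests were chosen with earlier results of these data known. Named genes were a fixed set of 21, the 2 members of each list with the smallest p, the 10 higher and 10 lower named entries with the smallest p, and called entries, of which a few are not reported here. Of 1075 listed genes 951 were tested. Alternatives were another pseudocount (0.1), other filters, TPM, median-ratio and quantile scaling, a model of the compared groups alone, sample weights, a replicate block and each sample left out.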

Additional observations from a re-analysis of the deposited data

Results flagged for a closer look

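With 226 groups of samples examined, chance alone puts a sample this far from the others in about 1 of 20. In IR replicate 1 the mean log2 level of the dendritic cell list, 3.63, was above the other IR samples. In IRLac replicate 3 the tubular injury list, 6.00, was below the other IRLac samples. In IRLac replicate 1 the endoplasmic reticulum stress list, 5.24, was above the other IRLac samples.

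Among single genes, Ifit3 in IRLac replicate 1 (35.75 FPKM), Hba-a2 in IRLac replicate 5 (3.86 FPKM) and Hsd17b2 in IRLac replicate 1 (2.82 FPKM) lay below the other IRLac samples. Ddit3 in IR replicate 5 (18.12 FPKM) and Cav3 in IR replicate 4 (2 FPKM) lay below the other IR samples, and Cdh5 in IR replicate 2 (14.51 FPKM) above them.

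Between the 2 gavaged groups, the direct test of IRLac against IRLacz passed for Pmp22 (log2 difference 0.46), Cav3 (0.77) and the unnamed locus BGI_novel_G000424 (-1.63, listed at 0 in all IRLac samples).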

How the results depend on the processing

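The count of entries called between IRLac and IR, 1 in the analysis as reported, was 0 with a mean of at least 5 FPKM required and 0 with sample weights. Leaving out samples gave 0 to 116, with 116 only without IR replicate 5 and 72 without it and IRLac replicate 3. The count at an unadjusted p under 0.05, 786, was 483 with a mean of at least 5 FPKM, and 527 to 1194 with samples left out. Entries without overlap, 76, were 117 with quantile scaling and 40 with a mean of at least 5 FPKM. Against IRLacz the 3 calls became 1 with a pseudocount of 0.1, 5 with no filter, 0 with a mean of at least 5 FPKM, 1 with the compared groups alone and 167 with sample weights, and 1 to 490 with samples left out, with 490 only without IRLac replicate 3. Apart from the filters, which change the entries tested, the cause was not tested.

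Replicate numbers did not pair the samples: the correlation of same-numbered deviations ran from -0.3 to -0.072 over 5 pairs, and 0 of 5 IRLac samples correlated best with their own number. With the replicate block the calls were 0 against IR and 1 against IRLacz, and 724 entries had an unadjusted p under 0.05.

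The effector median, -0.76, ran from -0.83 to -0.73 over pseudocounts, filters, scalings, models and weights and from -0.97 to -0.66 with samples left out. Of 72 named and tested genes, 68 kept their direction in every setting run. The others were near 0: Havcr1 was 0.071 with sample weights and ran from -0.29 to 0.16 with samples left out (0.16 without IRLac replicate 3, 0.09 without that and IR replicate 5), Slc34a1 from -0.17 to 0.034 (0.02 without IR replicate 5, 0.034 without IRLac replicate 5), Umod from -0.039 (without IRLac replicate 3; -0.0071 without IRLac replicate 5) to 0.40, and Pmp22 from -0.0099 (without IRLac replicate 1) to 0.064. Another 30 passed the adjusted threshold in some setting, in each case only without IR replicate 5. Genes under a few FPKM are limited by unknown read depth and by values listed at 0.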
